A study of Mus musculus with 10 samples.

Results

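Axon guidance ligands and receptors were read in the forebrain of newborn mice that lack the neuronal RNA-binding proteins Elavl3 and Elavl4, and in wild-type mice. Members were the genes whose symbol in the platform annotation belongs to the semaphorin, plexin, neuropilin, ephrin, Eph, Slit, Robo, netrin, netrin receptor or netrin-G families, each read on its brightest probe set with exactly 1 symbol. The rule found 45 of the 13534 genes on the array that have such a probe set. Of the 45, 43 are guidance genes. Unc50 matched only by its letters and is not a netrin receptor, and Plxna4os1 is a transcript of the strand opposite to Plxna4. Their values are given, and medians are over the 43 genes. Nrp1, Nrp2, Robo1, Robo2, Slit3, Ntn4 and the netrin-G genes are not analysed here, and neither are several ephrin, Eph, plexin, semaphorin and Unc5 genes. Efna5 and Efnb3 are the only ephrins among the 45, and Unc5a the only Unc5 receptor. The results therefore do not cover whole families.

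Total RNA of 10 pups at postnatal day 0 was hybridised to exon arrays, 1 array per animal. There were 5 wild-type animals and 5 double knockout animals of genotype Elavl3-/-;Elavl4-/-, all on a mixed C57BL/6 and CD-1 background and with no treatment in the labels. The study was laid out as littermate pairs, but no label ties an animal to its littermate, and no pairing was used in the comparison. Values are log2 expression values that the authors computed with RMA, and a difference is the double knockout mean minus the wild-type mean on that scale. Values of 1 gene can be compared between animals, but not with those of another gene, because each gene has its own probes. Each value sums all cells of the dissected tissue, so fewer cells of a type and less RNA per cell cannot be told apart.

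Growing axons are steered by ligands that attract or repel them and by receptors on the growth cone that read these cues. Secreted class 3 semaphorins act through neuropilins and plexins, membrane semaphorins bind plexins directly, ephrins on one cell bind Eph receptor kinases on the next, Slit proteins repel axons that carry Robo receptors, and netrins attract through Dcc and repel through Unc5 receptors. In the forebrain these families guide callosal, thalamocortical, corticospinal and hippocampal fibres, many of which are still growing at birth. Elavl3 and Elavl4, also called HuC and HuD, bind U-rich stretches of transcripts in neurons and act on their splicing, stability and translation. An array value of this kind reads the amount of RNA and does not read its translation. How far it follows splicing is not known, because the sources used do not say which exons a probe set covers.

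Several facts of the arrays bear on what follows. Elavl3 was at 10.52 to 11.39 in wild-type and at 5.53 to 6.94 in double knockout animals, and Elavl4 at 7.42 to 7.69 and at 5.88 to 6.49, so neither gene's groups overlapped. Xist was at 11.86 and 11.39 in wild-type replicates 2 and 3 and at 11.71 in double knockout replicate 1. In all other arrays it was at 4.33 to 5.33, so the groups did not hold equal numbers of animals with high Xist. Wild-type replicate 4 correlated with the other arrays at 0.933 to 0.946 over all probe sets, while the lowest correlation of any other pair was 0.958, so a member's difference is also given without it where that turned its sign or moved it by over 1.5 times. All 15 measured genes of the forebrain neuron list (among them Tbr1, Neurod6, Bcl11b and Dlx2) lay above a dim limit of 5.88, which is the 95th percentile of 714 probe sets of olfactory, vomeronasal, taste and trace-amine receptor genes. Of the 4 measured hindbrain and spinal cord genes, only Gbx2, which the thalamus also expresses, lay above that limit. Choroid plexus markers varied most between animals of all marker lists, with scores (mean log2 deviation of 6 genes) of -0.98 to 0.73 in wild-type and -0.75 to 0.72 in double knockout animals. Among members, Epha1, Plxnb3, Robo3 and Plxna4os1 lay at or below the dim limit and 41 lay above it.

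None of the 45 members differed between double knockout and wild-type forebrain in limma's test with Benjamini-Hochberg adjustment over all 65529 probe sets. Over the same probe sets 0% were called higher and 0.00763% lower, and over the 13534 genes 0% were called higher and 0.0148% (Elavl3 and Elavl4) lower. The call of Elavl4 (adjusted p = 0.0130) was lost under 9 of 21 alternatives, with limma's adjusted p = 0.0573 without wild-type replicate 4 and 0.0982 in a blocked fit that paired animals of closest number, while its difference stayed between -1.38 and -1.22. The lowest adjusted p among members was 0.821, for Epha8. Differences ran from -0.22 (Epha8) to 0.24 (Dcc), and 21 of the 43 guidance genes lay above 0, 21 below 0 and Sema6a at 0.00, a split that was 15 above and 28 below after quantile normalization. Their median difference was 0.00, beside -0.03 over all genes, of which 39.1% lay above 0. Above the dim limit, 21 of 40 guidance genes lay above 0 (median 0.009), beside 45.3% of 8700 genes (median -0.012). Without wild-type replicate 4 the median of the 43 was -0.03 and 15 of them lay above 0, beside -0.03 and 38.1% over all genes. The 23 ligands had a median of 0.00 and the 20 receptors also of 0.00, and both medians were -0.03 without that array.

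The intervals say how large a difference these arrays leave room for. On the brightest probe set of each gene, the 95% intervals of all 45 members lay within 1.5-fold in either direction. The share was 91.1% of all genes and 93.4% of those above the dim limit. The lowest bound was -0.49, of Sema7a, and the highest 0.52, of Dcc. No member had an unadjusted limma p under 0.05, beside 2.14% of all genes (0.598% higher and 1.54% lower). No member had groups without overlap, beside 0.968% of all genes (0.214% higher and 0.754% lower). When probe sets with 1 symbol were fitted by themselves, 4 members had an unadjusted p under 0.05 (Dcc, Epha8, Ephb1 and Sema3b), a share of 8.89% beside 5.19% of all genes, and the lowest adjusted p among members was 0.811. By a two-sided exact permutation test without adjustment, 3 members (Epha8, Ephb1 and Sema3b) had a p under 0.05, a share of 6.67% beside 5.82% of all genes.

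**Figure D1:**
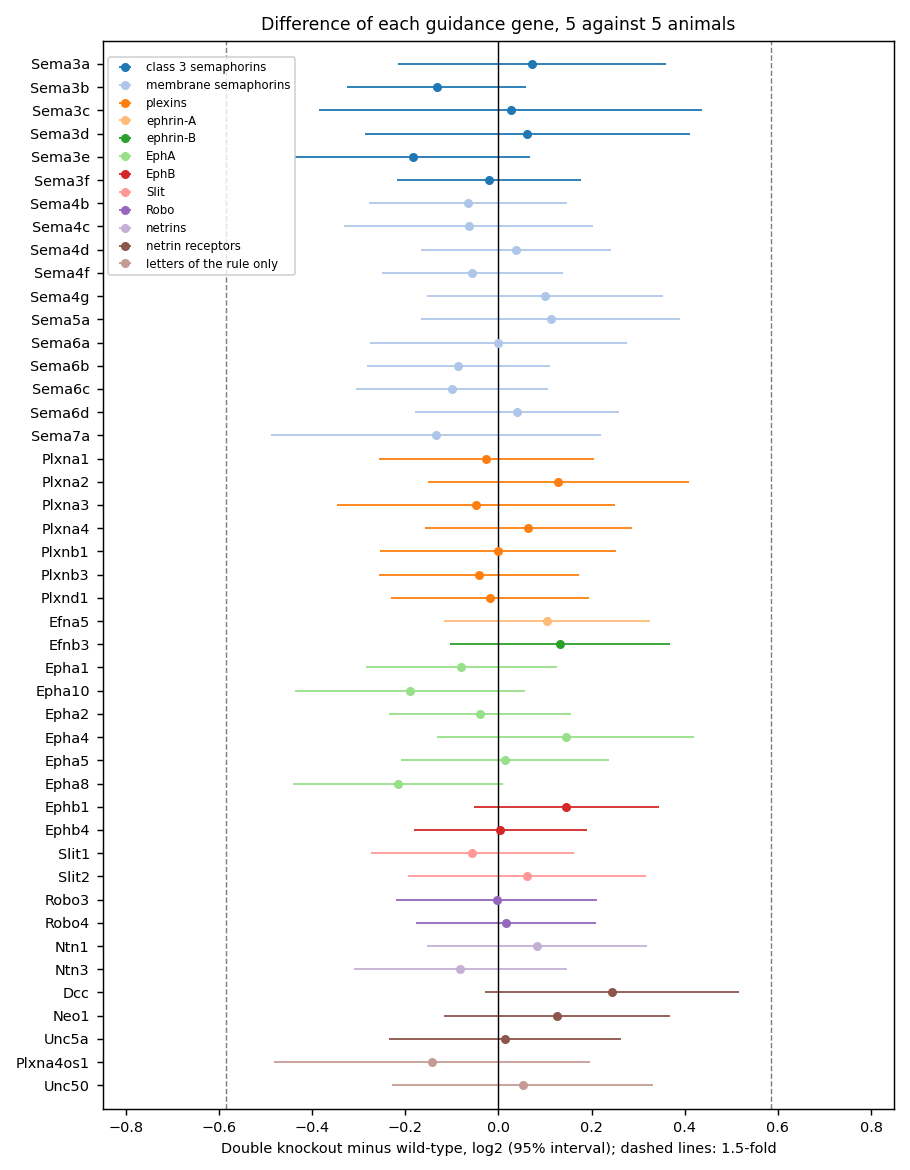
Difference of each of the 45 genes between double knockout and wild-type forebrain (x axis, log2) with its 95% interval from limma, by gene (y axis) and coloured by family; the dashed lines mark 1.5-fold. All 45 intervals lie inside those lines, and the points run from -0.22 for Epha8 to 0.24 for Dcc.

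Netrin receptors had the largest difference of any member, in Dcc, which carries the attractive response of commissural and cortical axons to netrin. Dcc was at 9.64, 9.65, 9.48, 9.33 and 9.15 in wild-type replicates 1 to 5 and at 9.58, 9.76, 9.80, 9.54 and 9.79 in double knockout replicates 1 to 5. Wild-type replicates 4 and 5 lay below every double knockout animal, wild-type replicate 3 also did, and wild-type replicates 1 and 2 lay among the double knockout values, so the groups overlapped. The means were 9.45 ± 0.21 and 9.69 ± 0.12 (SD, n = 5 per group), which is a difference of 0.24 (SE 0.124, 95% interval -0.03 to 0.52) with limma's adjusted p = 0.835 and an exact permutation p of 0.0635. The difference was 0.21 without wild-type replicate 4, 0.17 without wild-type replicate 5 and 0.29 without wild-type replicate 2. Neo1, which encodes neogenin, a Dcc relative that binds netrins and repulsive guidance molecules, differed by 0.13 (95% interval -0.12 to 0.37) and by 0.06 without wild-type replicate 4. Unc5a, a receptor that turns netrin into a repellent, differed by 0.01 (95% interval -0.24 to 0.26), and by -0.06 without wild-type replicate 4.

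The netrin ligands lay on both sides of 0. Ntn1, the main netrin of the developing brain, was at 7.59, 7.65, 7.38, 7.69 and 7.41 in the wild-type animals and at 7.53, 7.65, 7.49, 7.78 and 7.68 in the double knockout animals. The lowest values were those of wild-type replicates 3 and 5, and the groups overlapped over most of their range. Its difference was 0.08 (SE 0.108, limma's adjusted p = 0.914). Ntn3, a second secreted netrin, was at 7.89, 7.78, 8.0, 8.16 and 8.08 in wild-type and at 7.92, 7.88, 7.79, 7.92 and 7.99 in double knockout animals. Wild-type replicates 3, 4 and 5 lay above every double knockout animal and the others did not. The difference of Ntn3 was -0.08 (SE 0.104, adjusted p = 0.910) and -0.04 without wild-type replicate 4.

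Ephrins and Eph receptors contained the largest negative difference, that of Epha8. Epha8, an EphA receptor kinase, was at 8.04, 8.19, 8.04, 7.79 and 7.93 in wild-type and at 7.80, 7.84, 7.67, 7.78 and 7.82 in double knockout animals. Wild-type replicates 1, 2, 3 and 5 lay above all 5 double knockout animals and wild-type replicate 4 lay among them. The means were 7.998 ± 0.149 and 7.78 ± 0.07 (SD, n = 5 per group), which is a difference of -0.22 (SE 0.103, 95% interval -0.44 to 0.01) with limma's adjusted p = 0.821 and an exact permutation p of 0.0317. Without wild-type replicate 4 the difference was -0.27, with adjusted p = 0.873.

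Ephb1, a receptor of B-type ephrins that acts in crossing decisions of axons at the midline, had the opposite sign. It was at 9.31, 9.31, 9.47, 9.35 and 9.26 in wild-type and at 9.42, 9.50, 9.48, 9.57 and 9.46 in double knockout animals. Only wild-type replicate 3 reached into the double knockout range. The double knockout animal of closest number to it was replicate 4, the highest of its group at 9.57. In the blocked fit that paired animals of closest number, limma's adjusted p was 0.763. The means were 9.34 ± 0.08 and 9.49 ± 0.06 (SD, n = 5 per group), which is a difference of 0.15 (SE 0.09, 95% interval -0.05 to 0.34) with limma's adjusted p = 0.845 and an exact permutation p of 0.0238. It was 0.15 without wild-type replicate 4. Ephb4, the other EphB receptor measured and best known from veins, differed by 0.004 (0.0025 without that array) and had the smallest within-group SD of all members, 0.0376.

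The ephrin ligands that were measured lay above 0 but overlapped widely. Efnb3, a transmembrane ephrin of the midline that keeps corticospinal axons from recrossing, was at 9.16, 8.86, 8.92, 9.08 and 9.02 in wild-type and at 9.25, 9.08, 8.93, 9.24 and 9.20 in double knockout animals. Double knockout replicates 1, 4 and 5 lay above every wild-type animal and the others did not. Its difference was 0.13 (SE 0.107, limma's adjusted p = 0.874). Efna5, a lipid-anchored ephrin that shapes topographic maps, was at 8.55, 8.26, 8.43, 8.48 and 8.35 in wild-type and at 8.54, 8.39, 8.45, 8.54 and 8.67 in double knockout animals, and only double knockout replicate 5 lay above the highest wild-type animal. Its difference was 0.10 (SE 0.101, adjusted p = 0.886).

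The other EphA receptors were spread over both signs. Epha4, which binds ephrins of both types and limits corticospinal and hippocampal growth, differed by 0.14 (95% interval -0.13 to 0.42) and by 0.09 without wild-type replicate 4. Epha5, a receptor of A-type ephrins in forebrain maps, differed by 0.01, and by -0.04 without that array. Epha2 differed by -0.04 and the dim Epha1 by -0.08, or -0.04 without that array. Epha10, an Eph receptor without kinase activity, differed by -0.19 (95% interval -0.44 to 0.06) and by -0.12 without wild-type replicate 4, which held its highest value of 7.54. Epha10, Epha2 and Epha8 are the members on the chromosome of Elavl4, chromosome 4, and all of them lay below 0. Over all genes of any chromosome only 39.1% lay above 0, and the share on chromosome 4 was not counted. The 8 members on the chromosome of Elavl3, chromosome 9, had a median of -0.003 with 3 above 0, and of 0.007 with 4 above 0 without wild-type replicate 4.

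**Figure D2:**
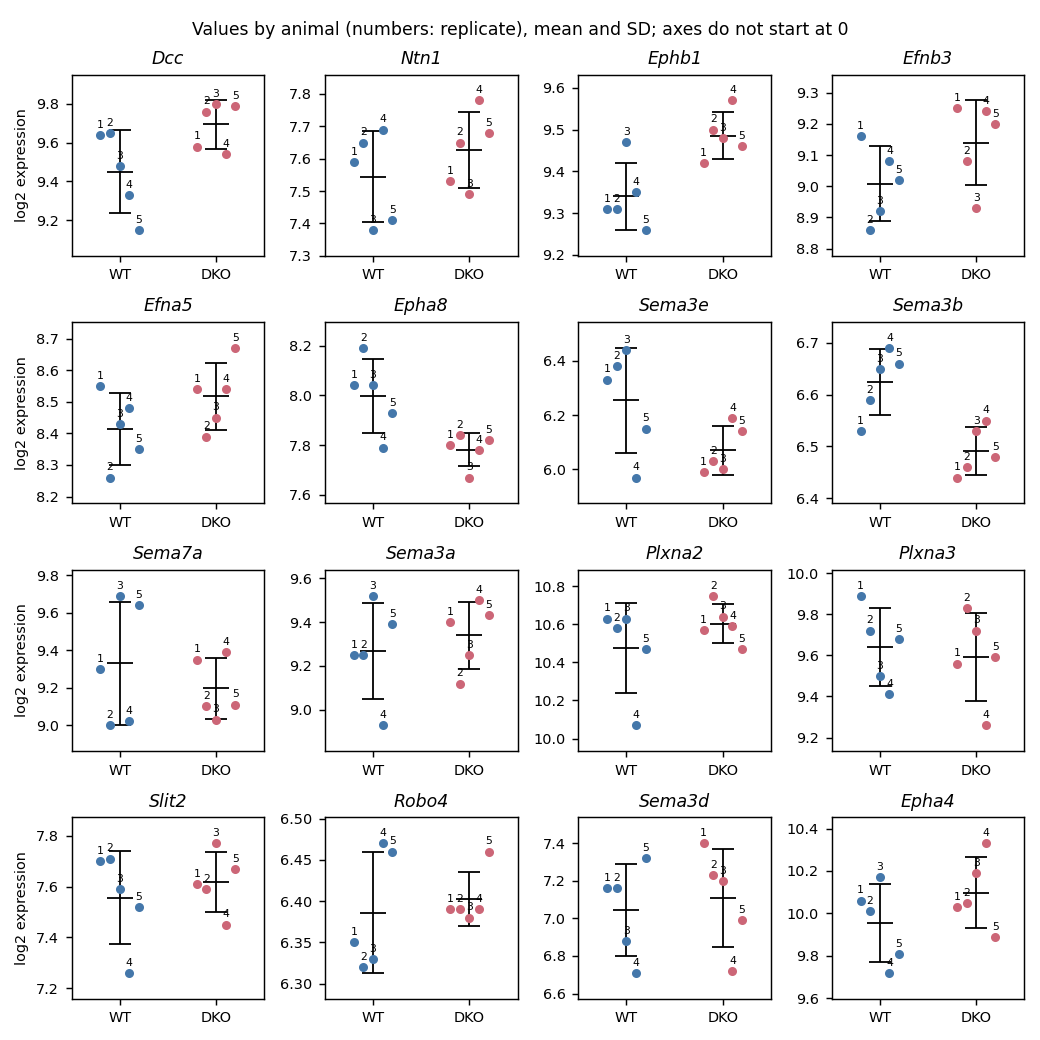
Log2 expression (y axis, which does not start at 0) of 16 genes in each wild-type (WT) and double knockout (DKO) animal, numbered by replicate, with the group mean and SD. The groups overlap in every panel, with 1 wild-type animal inside the double knockout range for Ephb1 and for Epha8.

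Secreted class 3 semaphorins, which repel or attract axons and migrating neurons through neuropilin and plexin complexes, had a median difference of 0.003 over 6 genes, and of -0.06 without wild-type replicate 4, where all 6 lay below 0. Sema3e, which signals through plexin-D1, was at 6.33, 6.38, 6.44, 5.97 and 6.15 in wild-type and at 5.99, 6.03, 6.00, 6.19 and 6.14 in double knockout animals. Wild-type replicates 1, 2 and 3 lay above every double knockout animal, and wild-type replicate 4 lay below every one. Its difference was -0.18 (SE 0.115, 95% interval -0.44 to 0.07, limma's adjusted p = 0.847) and -0.26 without wild-type replicate 4.

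Sema3b, another secreted member of this class, was at 6.53, 6.59, 6.65, 6.69 and 6.66 in wild-type and at 6.44, 6.46, 6.53, 6.55 and 6.48 in double knockout animals. Only wild-type replicate 1 reached into the double knockout range. The difference was -0.13 (SE 0.0874, 95% interval -0.32 to 0.06) with limma's adjusted p = 0.856 and an exact permutation p of 0.0238. Sema3f, also on chromosome 9 and a ligand of neuropilin-2, differed by -0.02 (95% interval -0.22 to 0.18), and by -0.04 without wild-type replicate 4.

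Sema3a, the founding repellent of the class, was at 9.25, 9.25, 9.52, 8.93 and 9.39 in wild-type and at 9.40, 9.12, 9.25, 9.50 and 9.43 in double knockout animals. Wild-type replicate 4 lay below all other animals of either group. The difference of 0.07 (SE 0.131, limma's adjusted p = 0.940) became -0.01 without it. Sema3d was at 7.16, 7.16, 6.88, 6.71 and 7.32 in wild-type and at 7.40, 7.23, 7.20, 6.72 and 6.99 in double knockout animals, a difference of 0.06 (SE 0.159, adjusted p = 0.958). Its lowest values were those of wild-type replicate 4 and double knockout replicate 4, and without the former the difference was -0.02.

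Sema3c, which attracts cortical axons toward the callosal midline, varied more between animals of a group than any other member, with a within-group SD of 0.313 beside a median of 0.121 over the 45 members and 0.156 over all genes. It was at 9.30, 9.53, 9.35, 8.73 and 8.78 in wild-type and at 8.89, 9.33, 9.41, 9.31 and 8.88 in double knockout animals. The values fell into 2 sets that cut across genotype, one at 8.73 to 8.89 and the other at 9.30 to 9.53, and the difference between genotypes was 0.03 (SE 0.187, 95% interval -0.38 to 0.44), or -0.08 without wild-type replicate 4. The 4 arrays with low Sema3c were also the 4 with the lowest choroid plexus score, -0.98 and -0.39 in wild-type replicates 5 and 4 and -0.75 and -0.74 in double knockout replicates 5 and 1. The other 6 arrays had scores from -0.12 to 0.73. The 4 animals with low Sema3c were also the 4 with the lowest animal numbers in the labels. The split by number is thus the same as the split by score, and its part in Sema3c was not tested. By closest number, wild-type replicate 4 goes with double knockout replicate 5, and wild-type replicate 5 with double knockout replicate 1. The numbers of each pair are 3 apart. Whether these animals are littermates is not known, so the 4 may not be independent of each other, and the slope below takes no account of this. In a fit with group and score, Sema3c changed by 0.39 per score unit (SE 0.0932), and by 0.42 without the 2 arrays farthest from the median score. This slope did not pass limma's test over all probe sets, with adjusted p = 0.687, in which 0.00153% of probe sets and 0.00739% of genes were called. The next largest slopes among members were those of Unc50 (0.24), Epha4 (0.22) and Sema5a (0.19). These did not pass the same test either, with adjusted p = 0.703, 0.718 and 0.746. Of the 10 listed choroid plexus markers 6 were measured and 5 of these lay above the dim limit, with Ttr at 9.35 over all arrays. The within-group SD of Ttr was 2.61, and those of the other markers ran from 0.12 (Kl) to 0.65 (Otx2). Ttr therefore weighs most in the score. The slope of Sema3c was looked for after the values were seen, and it rests on the gap between the sets.

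**Figure D3:**
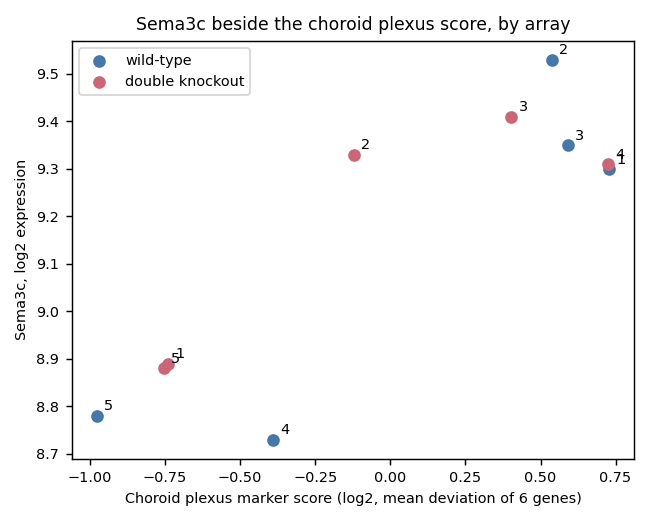
Log2 expression of Sema3c (y axis) against the choroid plexus marker score of the same array (x axis, mean log2 deviation of 6 genes), 1 point per animal, numbered by replicate and coloured by genotype. Arrays at 8.73 to 8.89 have scores of -0.98 to -0.39, and those at 9.30 to 9.53 have scores of -0.12 to 0.73.

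Membrane semaphorins of classes 4 to 7 had a median difference of -0.06 over 11 genes, with 4 above 0 and 6 below. Sema7a, a lipid-anchored semaphorin that promotes axon growth, was at 9.30, 9.0, 9.69, 9.02 and 9.64 in wild-type and at 9.35, 9.10, 9.03, 9.39 and 9.11 in double knockout animals. Wild-type replicates 3 and 5 lay above all other animals, and wild-type replicates 2 and 4 below all others. Its difference was -0.13 (SE 0.161, 95% interval -0.49 to 0.22, limma's adjusted p = 0.905), between -0.22 and -0.04 when single arrays were left out, with the smallest size without wild-type replicate 3 and -0.21 without wild-type replicate 4.

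Among the rest of this family, differences ran from -0.10 for Sema6c to 0.11 for Sema5a, which was at 0.06 without wild-type replicate 4. Sema4d, a ligand of plexin-B1, differed by 0.04, and Sema4b, Sema4c and Sema4f by -0.07, -0.06 and -0.06, with Sema4c at -0.02 without that array. Sema4g was at 0.10, and at 0.03 without wild-type replicate 4. The class 6 genes, whose products bind type A plexins, lay at 0.00 (Sema6a), -0.09 (Sema6b), -0.10 (Sema6c) and 0.04 (Sema6d, which was at -0.001 without wild-type replicate 4). Sema6a had 95% bounds of -0.28 and 0.28, and its value was -0.10 without wild-type replicate 4, which held its lowest value of 8.36.

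Plexins, the signalling receptors of semaphorins, had a median difference of -0.02 over 7 genes, and of -0.04 without wild-type replicate 4. Plxna2, a receptor for class 6 semaphorins in hippocampal mossy fibres, was at 10.63, 10.58, 10.63, 10.07 and 10.47 in wild-type and at 10.57, 10.75, 10.64, 10.59 and 10.47 in double knockout animals. Wild-type replicate 4 alone lay below the other 9 animals. The difference was 0.13 (SE 0.128, limma's adjusted p = 0.886) and 0.03 without it. Plxna3, an X-linked receptor for class 3 semaphorins, was at 9.89, 9.72, 9.50, 9.41 and 9.68 in wild-type and at 9.56, 9.83, 9.72, 9.26 and 9.59 in double knockout animals, with the lowest value in double knockout replicate 4. Its difference was -0.05 (SE 0.136, adjusted p = 0.963), or -0.11 without wild-type replicate 4, with a within-group SD of 0.202. With Xist as a covariate the difference of Plxna3 was -0.06. Plxna1 was at -0.03 and Plxna4, on its brightest probe set, at 0.06, and without that array they were at -0.10 and 0.007. Plxnb1, the Sema4d receptor, was at -0.002, or -0.02 without it, and the dim Plxnb3 at -0.04. Plxnd1, found in blood vessels and in subsets of forebrain neurons, was at -0.02, or -0.04 without it.

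Slit ligands, which repel axons from the midline, and the measured Robo receptors gave small differences. Slit2 was at 7.70, 7.71, 7.59, 7.26 and 7.52 in wild-type and at 7.61, 7.59, 7.77, 7.45 and 7.67 in double knockout animals. Its lowest value was that of wild-type replicate 4, and the difference of 0.06 (SE 0.116, limma's adjusted p = 0.941) became -0.01 without it. Slit1 differed by -0.06 (95% interval -0.27 to 0.16), and by -0.03 without that array. Robo4, an endothelial Robo, was at 6.35, 6.32, 6.33, 6.47 and 6.46 in wild-type and at 6.39, 6.39, 6.38, 6.39 and 6.46 in double knockout animals, a difference of 0.02 (SE 0.0875, adjusted p = 0.982) that was 0.04 without wild-type replicate 4. The highest values were 6.47 and 6.46 in wild-type replicates 4 and 5 and 6.46 in the fifth double knockout animal. The endothelial and pericyte score (7 of 11 listed genes measured, all above the dim limit) ran from -0.17 to 0.26 in wild-type, highest in replicate 5, and from -0.14 to 0.09 in double knockout animals. Its part in Robo4 was not tested. Robo3, which lets commissural axons cross the midline and lies next to Robo4, was dim and differed by -0.004, or by 0.04 without wild-type replicate 4. Plxna4os1 was at 5.40, 4.74, 4.86, 4.95 and 5.09 in wild-type and at 4.91, 5.00, 5.11, 4.5 and 4.81 in double knockout animals, a difference of -0.14 (SE 0.154, adjusted p = 0.896) at a level below the dim limit. Unc50 was at 0.05, or at 0.009 without that array.

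For 4 genes more than 1 probe set carried the name, and these did not always agree. The 3 probe sets of Epha10 differed by -0.04, -0.19 and -0.43, and by -0.10, -0.12 and -0.39 without wild-type replicate 4. The last of these, probe set 6917059, was at 7.41, 6.86, 6.51, 7.11 and 6.92 in wild-type and at 6.77, 6.47, 6.26, 6.60 and 6.57 in double knockout animals, with a 95% interval of -0.79 to -0.06 and limma's unadjusted p = 0.0255 and adjusted p = 0.789. Wild-type replicate 3 lay inside the double knockout range and the other 4 wild-type animals above it. For Plxna4 the brightest probe set was at 0.06 and the other, 6952522, at 0.32 (95% interval 0.004 to 0.64, adjusted p = 0.809) and at 0.22 without wild-type replicate 4. The intervals of these 2 probe sets reach past 1.5-fold, unlike those of the brightest ones. The probe sets of Sema3d were at 0.06 and -0.10, or -0.02 and -0.16 without that array, and those of Epha2 at -0.04 and -0.20. The sources used here do not say which exons a probe set covers. No symbol was out of place in identifier order, judged by the chromosomes of 20 named neighbours on either side.

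Gene length was a feature that the rule had not used. All 43 guidance genes had a length in the RefSeq gene table of GRCm38.p6, from 5.56 kb for Ntn3 to 1098 kb for Dcc. Of the 8 genes over 300 kb (Dcc, Sema6d, Sema3a, Sema5a, Plxna4, Ephb1, Epha5 and Slit2) 8 had a difference above 0 (7 after quantile normalization or cyclic loess), with a median of 0.07, and of the 11 between 100 and 300 kb 8 did, with a median of 0.06. Of the 12 genes between 20 and 100 kb 2 lay above 0 (median -0.03), and of the 12 under 20 kb 3 did (median -0.06). Over all genes the shares above 0 in these bins were 58.1%, 49.9%, 44.6% and 32.5%, from the longest to the shortest. Among genes above the dim limit they were 62.3%, 55.5%, 51.9% and 35.1%. Spearman's rank correlation between length and difference was 0.56 across the 43 genes and 0.20 across the 13243 genes with a length. It was 0.22 across the 8570 of these above the dim limit. These are correlations across genes that share the same 10 arrays, and genes are not independent replicates.

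This pattern moved with wild-type replicate 4. Without that array the rank correlation was 0.32 across the guidance genes and 0.02 across all genes, and 4 of the 8 genes over 300 kb lay above 0. Leaving out any other single array kept the rank correlation across the guidance genes between 0.49 and 0.59. Wild-type replicate 4 held the lowest of the 10 values for 13 of the 19 guidance genes of 100 kb or more, a share of 68.4%, and for 3 of the 24 shorter ones, a share of 12.5%. Over all genes these shares were 48.3% and 20.4%. In that array the longer guidance genes lay at a median of -0.26 from their means over all arrays and the shorter ones at 0.004. The next lowest median of the longer genes was -0.07, in wild-type replicate 5, and in the double knockout arrays these medians ran from 0.004 to 0.09. With 1 length bin left out at a time, the rank correlation lay between 0.37 (without the genes over 300 kb) and 0.70 with all arrays, and between 0.11 (without the same genes) and 0.55 without wild-type replicate 4. The bins of the guidance genes hold 12 genes or fewer.

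**Figure D4:**
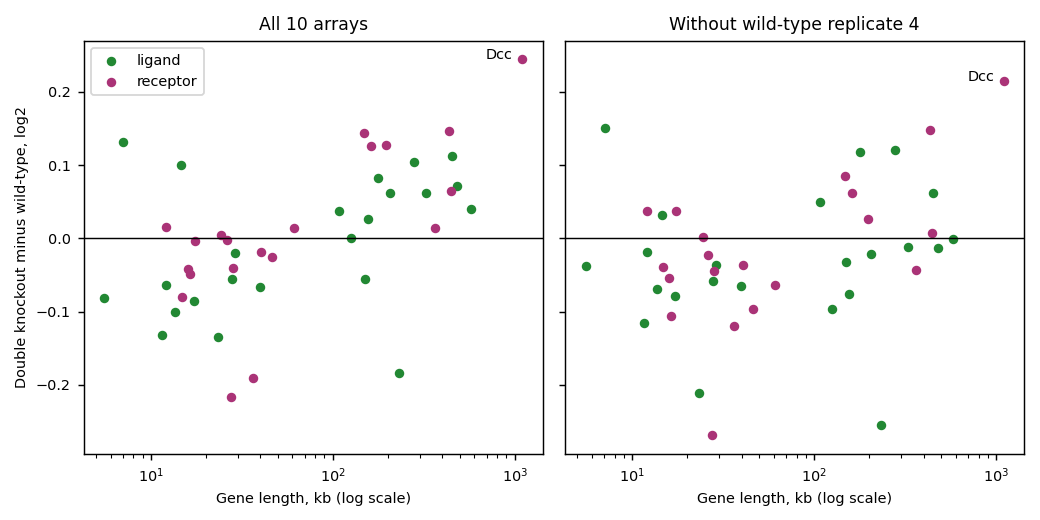
Difference between double knockout and wild-type (y axis, log2) against gene length (x axis, kb, log scale) for 43 ligand and receptor genes, with all 10 arrays on the left and without wild-type replicate 4 on the right. Spearman's rank correlation is 0.56 on the left and 0.32 on the right, and Dcc lies at the upper right of both panels.

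**Figure D5:**
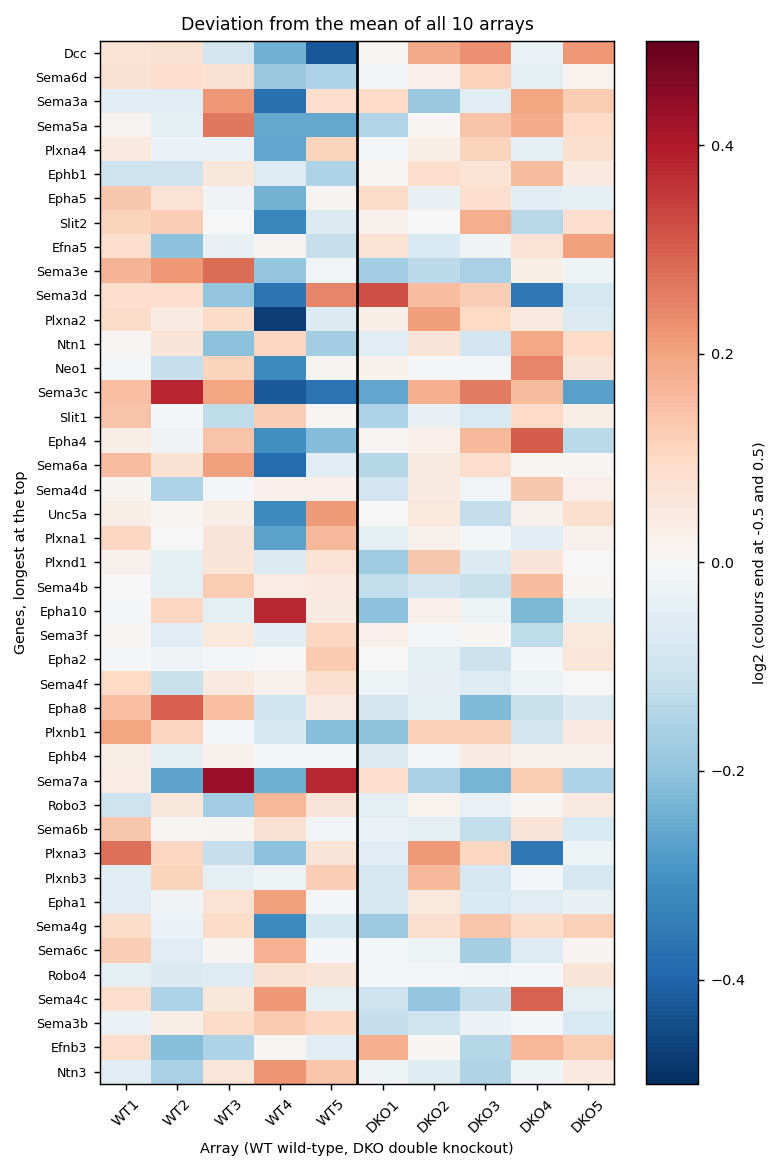
Log2 deviation of each of 43 genes (rows, longest at the top) from its mean over all arrays in each array (columns); the line separates wild-type (WT) from double knockout (DKO). The column of wild-type replicate 4 is low for most genes in the upper part, with a median of -0.26 over genes of 100 kb or more, and near 0.004 over the shorter ones.

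Genes listed as acting downstream of these receptors, or beside them, also gave no call. Among semaphorin effectors 0 of 18 measured genes passed in either direction, with a median difference of -0.04, or -0.06 without wild-type replicate 4. Limk1, a kinase that stabilises actin, had means of 9.11 ± 0.12 and 8.91 ± 0.14 (SD, n = 5 per group, wild-type first), and Mical1, an actin-oxidising enzyme that binds plexins, differed by -0.11. Among netrin, Slit and Robo effectors 0 of 11 passed (median 0.05, or -0.04 without that array), with the actin regulator Enah at 0.12, or 0.04 without wild-type replicate 4, and the actin-binding Ablim3 at -0.08. Among genes listed as ephrin effectors 0 of 9 passed (median 0.01, or -0.04 without that array). Intu, whose place on this list is not established, was at -0.23, and Rasa1, a brake on Ras signalling, at 0.24. They were at -0.11 and 0.09 without wild-type replicate 4. Among other guidance molecules 0 of 20 passed (median 0.01, or -0.001 without that array). Differences in this list ran from -0.09 to 0.31, with 1 gene at an unadjusted p under 0.05. The neuronal tubulin Tubb3, which is not that gene, differed by 0.28.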

How the data were processed

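The deposited values are log2 expression values that the authors computed with RMA in Affymetrix Expression Console, naming mouse build mm8, per the submitters' processing notes. RMA corrects background, equalises array distributions and summarises probes. Tool versions, and whether rows are genes or exons, are not given in the sources used. Values were rounded to 2 decimals before deposit, and array medians ran from 5.05 to 5.24. No column belonged to another sample. The number of arrays limits the precision.

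Symbols came from the platform annotation: 15419 probe sets carried 1 symbol, 961 several and 49149 none. Chromosomes and gene lengths came from the RefSeq gene table of GRCm38.p6, matched by gene ID.

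Groups were compared on all 65529 probe sets by limma 3.58.1 (lmFit, then eBayes; R 4.3.3) in a model of group alone, two-sided, with Benjamini-Hochberg adjustment over all probe sets and a threshold of 0.05. The fit was run on simulated data with independent noise in each probe set and array, without an odd array or pairs. That run checks the code and does not show how small a difference these arrays can detect. Exact permutation tests used the 252 splits of 10 arrays, whose smallest p is 0.00794. These tests, and the overlap of the groups, took no account of possible littermate pairs. Replicate numbers are names in order of deposit. All animals are separate.

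Members, lists and alternatives were chosen with earlier results of these data known. Full values are given for Dcc, for the member of each family with the largest difference above the dim limit, and for the 6 with the largest within-group SD. Sema3b, Epha4, Epha10 and second probe sets were added after their values were seen. Of each effector list, the 2 genes with the smallest p are named, except 1 that is not reported here. Alternatives were 3 other normalizations, removal of dim probe sets, a fit to single-symbol probe sets, other variance models, array weights, Xist or the choroid plexus score as a covariate, a replicate block, the mean of a gene's probe sets and leaving out each array.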

Additional observations from a re-analysis of the deposited data

Results flagged for a closer look

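Each group of 5 values of the 45 members was examined for 1 animal that stood apart, measured as its distance from the next value over the range of the group. Of 90 groups 6 had such an animal, and chance gives about 1 in 20. Plxna2 was at 10.07 in wild-type replicate 4, with the other wild-type animals at 10.47 to 10.63. Sema4d was at 7.53 in wild-type replicate 2, below the others at 7.68 to 7.71. Epha2 was at 6.42 in wild-type replicate 5, above the others at 6.27 to 6.29. Sema4g was at 8.18 in double knockout replicate 1, below the others at 8.44 to 8.50. Neo1 was at 11.41 in double knockout replicate 4, above the others at 11.16 to 11.23. Robo4 was at 6.46 in double knockout replicate 5, above the others at 6.38 to 6.39. The 6 values came from 6 different arrays.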

How the results depend on the processing

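No member passed under any of the 21 alternatives, with the lowest adjusted p among members between 0.623 (Dcc, without wild-type replicate 1) and 0.936. Of the 43 guidance genes 11 lay above 0 and 15 below 0 in the main comparison and under every alternative that gave a value, and 17 did not keep their sign. Epha1 and Plxnb3, among the 15, had no value under the filter on dim probe sets. That filter, the single-symbol fit, the trend and robust variance model and the replicate block cannot change a difference, so a sign kept under them carries no information. The mean of a gene's probe sets changes only genes with more than 1 probe set. The split of 21 above and 21 below became 15 and 28 with quantile normalization, 20 and 23 with median centring, 18 and 25 with cyclic loess and 15 and 28 without wild-type replicate 4. The median over these genes stayed between -0.03 and 0.02. Robo4 was at -0.0194 and Sema3c at -0.011 with quantile normalization, Sema3c at -0.00509 with cyclic loess and -0.0718 with array weights, and Sema3d at -0.018 as the mean of its probe sets. With single arrays left out, Sema3c ranged from -0.076 to 0.124, Sema3d from -0.022 to 0.159, Sema3a from -0.0125 to 0.135, Slit2 from -0.012 to 0.104, Plxna3 from -0.108 to 0.035 and Robo4 from -0.0005 to 0.037. The correlation of length with difference ranged from 0.32 to 0.59. Over all probe sets, 0 were called higher and 5 lower. Single-symbol probe sets by themselves gave 1 higher and 2 lower, Xist as a covariate 3 lower, and leaving out single arrays 1 to 6 lower. Pairs by nearest animal number as a replicate block gave 2 lower and a lowest member adjusted p of 0.712 (Dcc). The correlation of deviations within these pairs was -0.0006 to 0.156 over all probe sets, with 2 of 5 pairs over 0.1, and -0.0324 to 0.323 over single-symbol probe sets, with 4 of 5 over 0.1. Not every pair passed 0.1 in either set, and no label names littermates, so the pairing was kept as an alternative. The limit of 0.1 is a choice, and missing it does not show that the animals are unpaired. The animal numbers within a pair lay 2 to 4 apart, and whether these animals are littermates is not known. The cause of these changes was not tested.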
